A study of Homo sapiens with 6 samples.

Results

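The regions described here are the wide stretches of chromatin carrying phosphorylated threonine 11 of histone H3 (H3T11ph) that were found in control MDA-MB-231 cells and met again after PKM2 knockdown. A member is an H3T11ph region of the NC library on chromosomes 1 to 22 whose width is 2 or more times that of the narrowest region in the list (111 bp) and which shares at least 1 bp with a region of the PKM2-KD library. There were 1052 such kept regions among 4003 wide regions (26.3%, 95% Wilson interval 24.9 to 27.7) and among 41692 NC regions in all. The 2951 wide regions with no PKM2-KD region on them are called lost below, and 1364 narrower NC regions were also overlapped.

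MDA-MB-231 is a triple-negative breast cancer cell line, and all 6 libraries of the study came from it. CUT&Tag, in which an antibody guides the transposase Tn5 to cut out the DNA around its target, was run for H3T11ph and for acetylated lysine 27 of histone H3 (H3K27ac) in NC and PKM2-KD cells, and for the protein NONO in NC and NONO-KD cells. The labels give NC cells the genotype WT and the others a knockdown of PKM2 or of NONO, with no hairpin named. Each of the 6 groups held 1 library, so there was no replicate check and no p-value, and intervals below cover counting error only.

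PKM2 is an isoform of pyruvate kinase, the last enzyme of glycolysis, which can enter the nucleus and has been described as a kinase for threonine 11 of histone H3. Other kinases are also known to phosphorylate this residue. H3K27ac marks active promoters and enhancers, and NONO is a DNA- and RNA-binding protein of the nucleus, known from paraspeckles and from transcription and splicing.

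On chromosomes 1 to 22 the PKM2-KD library held 35720 H3T11ph regions, of which 1870 reached the same minimum width. The depth implied by the peak lists was 3.35 fragments per kb in NC and 3.42 in PKM2-KD, so the pair was of like depth. The NC lists of NONO and of H3K27ac differ in form from their knockdown lists: 94.5% and 79.1% of their regions had exactly the narrowest width, 269 bp and 112 bp. Processing and knockdown therefore cannot be told apart between NC and knockdown for those targets, and each list is used below only to describe the kept and the lost regions. Among markers checked in H3K27ac NC, the mesenchymal gene VIM had a region 4305 bp wide with a fold of 66.6, while the estrogen receptor gene ESR1 had 1 region of 112 bp with a fold of 4.69. The highest folds of the other markers lay between. They were 24.4 at KRT8, 13.8 at GATA3, 11.9 at CAV1, 10.2 at CD44, 9.77 at EGFR and 7.47 at KRT5. The luminal genes KRT8 and GATA3 were thus above CAV1, CD44 and EGFR, and the markers did not sort by cell type.

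The promoters that carried kept regions show what kind of sequence was involved. Of the 1052 kept regions, 198 lay within 1 kb of the start of a protein-coding gene, and 214 RefSeq promoter windows of 192 such genes overlapped a kept region. Each window runs from 250 bases before to 50 bases after a start in GRCh38.p14, whose main chromosomes have the same coordinates as the build hg38 of the lists. The 5 windows below, written 5′ to 3′ on the strand of the gene, were chosen after their values were seen, for a high fold in both libraries or for several copies of CCAAT. Capitals mark 3 motifs on either strand. The first is CCAAT, which on the other strand reads ATTGG. The second motif is GGGCGG, which on the other strand reads CCGCCC. The third motif is CCGGAAG, which on the other strand reads CTTCCGG.

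AP4B1, chr1:113904979-113905278, minus strand: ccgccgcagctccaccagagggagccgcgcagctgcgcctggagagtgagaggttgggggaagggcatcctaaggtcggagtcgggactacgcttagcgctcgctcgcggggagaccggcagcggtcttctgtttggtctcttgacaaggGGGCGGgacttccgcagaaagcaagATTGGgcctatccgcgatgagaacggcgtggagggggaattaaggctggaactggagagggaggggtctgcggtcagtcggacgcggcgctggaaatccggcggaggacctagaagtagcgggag
FAM200B, chr4:15681577-15681876, plus strand: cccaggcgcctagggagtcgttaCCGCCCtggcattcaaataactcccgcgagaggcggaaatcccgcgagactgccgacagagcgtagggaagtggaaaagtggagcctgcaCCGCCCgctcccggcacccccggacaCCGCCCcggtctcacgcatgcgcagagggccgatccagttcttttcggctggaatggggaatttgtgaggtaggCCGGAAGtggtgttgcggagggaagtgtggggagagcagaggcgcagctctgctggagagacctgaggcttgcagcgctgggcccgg
SOWAHC, chr2:109614114-109614413, plus strand: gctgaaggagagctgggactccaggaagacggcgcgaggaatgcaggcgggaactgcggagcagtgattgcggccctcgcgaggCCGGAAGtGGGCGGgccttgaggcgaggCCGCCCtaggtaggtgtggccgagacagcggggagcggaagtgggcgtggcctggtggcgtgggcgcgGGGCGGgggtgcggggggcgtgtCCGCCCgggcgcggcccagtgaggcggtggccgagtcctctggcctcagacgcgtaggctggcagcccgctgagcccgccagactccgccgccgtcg
CDC45, chr22:19479576-19479875, plus strand: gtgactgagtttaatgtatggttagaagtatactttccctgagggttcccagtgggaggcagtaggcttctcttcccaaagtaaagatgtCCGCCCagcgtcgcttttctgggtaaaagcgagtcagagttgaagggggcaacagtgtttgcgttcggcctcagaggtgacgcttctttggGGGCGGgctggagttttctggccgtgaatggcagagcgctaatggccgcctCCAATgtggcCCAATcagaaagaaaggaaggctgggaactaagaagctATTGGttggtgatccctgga
DCBLD2, chr3:98901646-98901945, minus strand: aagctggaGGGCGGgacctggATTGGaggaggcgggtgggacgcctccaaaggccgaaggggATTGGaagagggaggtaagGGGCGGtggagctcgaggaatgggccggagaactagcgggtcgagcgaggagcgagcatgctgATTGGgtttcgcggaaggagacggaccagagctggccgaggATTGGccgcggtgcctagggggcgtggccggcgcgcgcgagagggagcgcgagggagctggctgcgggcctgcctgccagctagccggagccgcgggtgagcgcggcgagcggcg

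AP4B1 encodes a subunit of an adaptor complex of vesicle traffic and shares this stretch with the start of DCLRE1B, a nuclease gene on the opposite strand. Its region had a fold over background of 48.9 in NC and 87.7 in PKM2-KD. CDC45, a component of the replicative helicase, holds 3 copies of CCAAT and had folds of 18.9 and 14.4. DCBLD2, a gene for a membrane receptor, holds 4 copies and had folds of 11.8 and 4.99. The SOWAHC window holds GGGCGG in 4 places and CCGGAAG in 1, and its region overlapped a region in all 4 other lists.

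CCAAT, the core of the element bound by NF-Y, stood in 52.3% of the 214 windows with a kept region, in 41.5% of the 236 windows with a lost region and in 34.4% of 21156 windows of protein-coding genes. The difference between kept and lost was 10.8 percentage points (95% Newcombe interval 1.58 to 19.8). GGGCGG, the core of the GC box, stood in 79%, 80.5% and 56.6% of the kept, lost and all windows. CCGGAAG, an ETS-type motif, stood in 20.6%, 18.2% and 12.9%. For both of these the difference of kept and lost had an interval that spans 0, from −9.02 to 5.87 points and from −4.95 to 9.71 points. The TATAAA box stood in 7.01%, 6.78% and 9.51%, the AP-1-type TGANTCA in 6.07%, 3.81% and 6.08%, and the E-box CACGTG in 10.3%, 11% and 8.25%, and here too the intervals of the difference of kept and lost took in 0. All 6 motifs were searched on both strands. Median GC content was 64.7% in kept, 66.0% in lost and 62.7% in all windows. Windows of 1 gene can overlap, so they are not independent, and 6 motifs were tried.

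The width and the height of an NC region went with its chance of being met again, and both bear on the choice of the members. A PKM2-KD region overlapped 5.79% of all 41692 NC regions. The share was 2.65% at widths under 1.5 times the narrowest and 14.9% from there to 2 times. It was 19.4% at 2 to 3 times, 31.9% at 3 to 5 times and 51.0% at 5 times and over. Among the wide regions it was 13.0% where the NC pileup, the number of fragments stacked at the summit, was below 20, and 89.6% (82.6 to 93.9) where it was 160 or more. By chromosome the kept share of wide regions ran from 9.09% on chromosome 13 (5 of 55) to 35.0% on chromosome 1 (162 of 463). At the width limit, 15 regions at it or 1 bp above it were members, and 15 regions 1 or 2 bp narrower were overlapped too but lay just outside. Those just inside with the highest smaller fold lay 152958 bp from FGGY (folds 98.5 and 28.2), at RPL4 and SNAPC5 (18.2 and 37.4) and at TLCD3B (14.2 and 16.7). Those just outside lay nearest to PNPLA7 (41.3 and 26.4), NACC2 (44.5 and 17.4) and FASN (26.4 and 17.1).

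**Figure D1:**
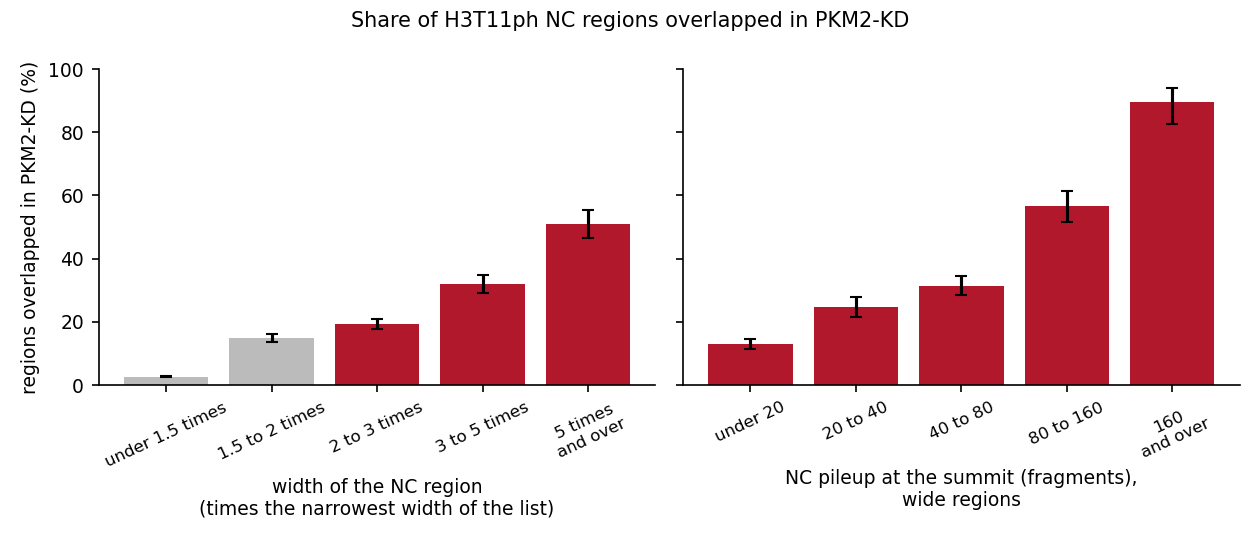
Share of H3T11ph NC regions overlapped by a PKM2-KD region, in percent, by width in multiples of the narrowest (left, grey below the limit of 2 times) and, for wide regions, by NC pileup in fragments (right). Bars are shares with 95% Wilson intervals; the share climbs from 2.65% to 51.0% with width and from 13.0% to 89.6% with pileup.

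Kept regions had a median width of 344 bp (up to 5112) in NC, and the PKM2-KD region sharing most bases with each had a median width of 192 bp. In PKM2-KD, 454 of the 1052 were themselves of the minimum width. The median fold was 9.49 in NC and 8.39 in PKM2-KD, and the median pileup was 51.0 and 47.0 fragments. Pileup was lower in PKM2-KD at 649 regions, higher at 387 and equal at 16, with a median ratio of PKM2-KD to NC of 0.787. The members were selected on their NC width, and the mirrored set did not lean this way: over the 783 PKM2-KD regions of the minimum width that overlap an NC region, the median ratio was 1.00, with 386 lower and 383 higher. The summits of a kept region and of its PKM2-KD region lay a median of 80.5 bp apart, and 362 pairs lay within 50 bp. A kept region is therefore a place where both libraries had a region, often with summits apart.

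Most kept regions stood on a raised local background. The caller's background was at least 2 times the commonest of its list at 781 of the 1052 in NC (74.2%), and at 717 in both libraries. It was raised at 38.6% of the lost regions and at 20.7% of all NC regions. Of the wide regions on a raised background 40.7% were kept, and of the others 13.0%. Kept regions with a background under 2 times the commonest numbered 271. Their median fold was 16.8 in NC and 13.0 in PKM2-KD, against 8.61 and 7.56 for those on a raised background. The part of the raised background in the results below is given by repeating the main comparisons among regions without it and, for the overlaps, among regions with it.

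**Figure D2:**
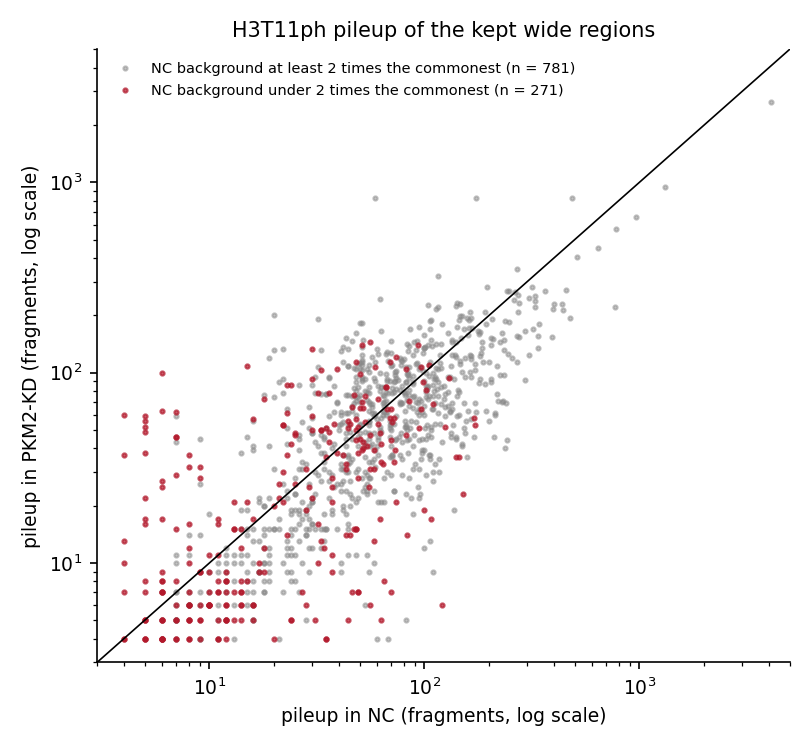
H3T11ph pileup at the summit of each of the 1052 kept regions, in fragments, in NC (horizontal, log scale) and in PKM2-KD (vertical, log scale), with the line of equal height. Red points are the 271 regions on an NC background under 2 times the commonest and grey points the 781 others; 649 points lie below the line and 387 above.

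H3K27ac covered most of the kept regions. An H3K27ac NC region overlapped 665 of the 1052 (63.2%), against 37.3% of the lost and 19.9% of all NC regions, a difference of kept and lost of 25.9 percentage points (22.4 to 29.2). H3K27ac of PKM2-KD cells overlapped 803 (76.3%), against 46.8% of the lost and 19.9% of all, a difference of 29.5 points (26.3 to 32.6). In both lists together, 631 kept regions (60.0%) and 933 lost ones (31.6%) were covered, against 13.2% of all NC regions. Without a raised background the differences were 38.7 points (32.6 to 44.2) and 44.7 points (39.2 to 49.3). On a raised background, which held 781 of the 1052, they were smaller, 14.9 points (10.4 to 19.4) and 12.9 points (8.63 to 17). The H3K27ac regions on kept sites were also wide, with a median of 603 bp in NC and 897 bp in PKM2-KD, against 316 bp and 540 bp on lost sites.

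The kept regions with H3K27ac were the stronger ones by fold. The 631 with H3K27ac in both lists had a median H3T11ph fold of 12.1 in NC and 11.4 in PKM2-KD. The 215 with it in neither had 6.32 and 5.99, although their median NC pileup, 62.0 fragments, was not below the 51.0 of the first set. H3K27ac was present in neither list at 47.5% of the lost regions and 73.3% of all NC regions, against 20.4% of the kept.

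NONO lay on fewer kept regions than H3K27ac, and the gap to the lost regions was of like size. A NONO NC region overlapped 455 of the 1052 (43.3%), against 17.2% of the lost and 6.53% of all NC regions, a difference of 26.1 points (22.8 to 29.4). The list of NONO-KD cells overlapped 403 (38.3%), against 16.5% and 4.42%, a difference of 21.8 points (18.6 to 25.1). With the NONO NC list cut to the length of the NONO-KD list by q value, the difference was 16.3 points (13.7 to 19). With the whole NONO NC list it was 15.7 points (10.4 to 21.5) without a raised background and 23.7 points (19.4 to 28) on one. The narrower kept regions had a share near that of the wide ones in H3K27ac NC (61.9%, a difference of 1.34 points, −2.56 to 5.21). They overlapped NONO less, at 23.8% in NC (19.5 points below, 15.7 to 23.2) and 16.2% in NONO-KD (22.1 points below, 18.6 to 25.6).

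All 4 other lists overlapped 124 kept regions (11.8%) and 70 lost ones (2.37%), a difference of 9.41 points (7.50 to 11.6). Of the 124, 22 lay in 1 cluster on chromosome 19 described below. Such neighbours are not independent, and the intervals in this paragraph do not cover that. The share was 0.650% over all NC regions and 2.42% over the narrower kept ones. None of the 4 lists overlapped 75 kept regions (7.13%) and 1136 lost ones (38.5%), against 69.4% of all NC regions and 16.6% of the narrower kept ones. Read from the other side, 63.9% (56.9 to 70.3) of the 194 wide regions with all 4 were kept, and 6.19% (4.97 to 7.69) of the 1211 with none. The rule did not use these lists.

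**Figure D3:**
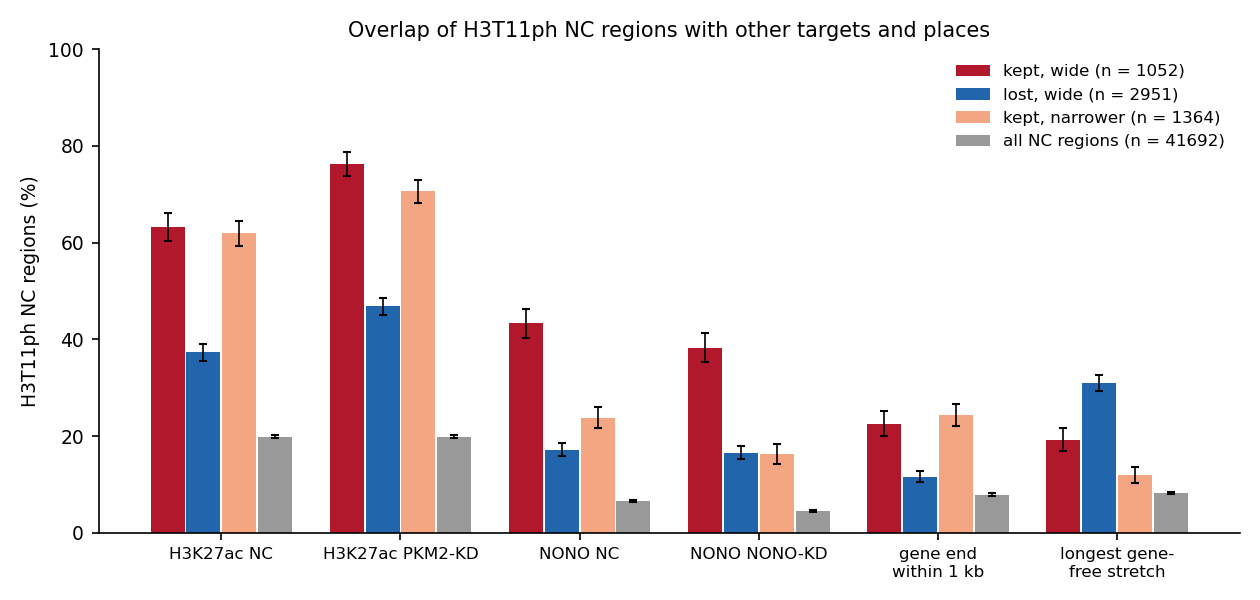
Percent of H3T11ph NC regions that overlap each other list, lie within 1 kb of a protein-coding gene end or lie inside the longest gene-free stretch of their chromosome, for kept wide, lost wide, kept narrower and all regions, with 95% Wilson intervals. Kept wide regions are above lost wide regions for the 4 lists and for gene ends, and below them for the gene-free stretches (19.2% and 31.0%, all heights together).

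Kept regions were more often at gene ends than lost ones, and the weighted difference within bands of NC pileup had an interval that takes in 0. An end of a protein-coding gene lay within 1 kb of 237 kept regions (22.5%), against 11.5% of the lost and 7.89% of all NC regions, a difference of 11.1 points (8.37 to 13.9). Within bands of NC pileup the weighted difference was 1.73 points (−2.15 to 5.61). With members limited to those met by a PKM2-KD region of the minimum width it was 5.72 points (2.16 to 9.75), and without a raised background 5.98 points (2.16 to 10.7). For gene starts the shares were 18.8%, 9.49% and 5.85%. The narrower kept regions were at gene ends in 24.3% and at gene starts in 22.8%, so nearness to genes was not particular to the wide ones. Of the other kept regions, 234 lay inside a protein-coding gene away from its ends and 581 lay outside protein-coding genes. Such genes overlapped 37.3% of the kept and 33.2% of the lost regions. These shares were below the 42.9% of the narrower kept and the 44.1% of all NC regions.

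A kept region lay within 1 kb of an end of 295 of 18973 protein-coding genes (1.55%). Of these 295, 268 had H3K27ac at an end in both lists, as did 11115 of all 18973. The 10 kept regions with the highest smaller fold of the NC and PKM2-KD pair were mostly away from promoters. The first lay 49572 bp from DYNC2H1, a gene for a motor of cilia (chr11:103529435-103529691), with folds of 77.2 in NC and 83.9 in PKM2-KD. It sat in an H3K27ac region 2051 bp wide in NC and 2265 bp wide in PKM2-KD. Another lay 247985 bp from ETS1, a transcription factor gene (68.5 and 107). The region 32727 bp from HIF1A, which encodes the oxygen-regulated transcription factor (67.5 and 56.9), and the one 24144 bp from MICAL2, a gene for an actin-oxidizing enzyme (56.4 and 59.7), also had H3K27ac in both lists. Among the regions inside genes were those of FRMD4A (67.4 and 63.1) and PKD1L1 (69.2 and 62.5), both with H3K27ac in both lists and NONO in NC. Others of the 10 lay at RPL24, at a pair of tRNA genes and at RNU11, and are taken up below.

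Among gene starts, the region at ABHD2, a hydrolase gene, had folds of 91.5 in NC and 50.6 in PKM2-KD. SLC20A1, a phosphate transporter gene, had 60.1 and 50. S100A10, whose product binds annexin A2, had 37.2 and 60.4, and JARID2, a cofactor gene of the Polycomb complex PRC2, had 45.9 and 37.4. An alternative start of LDHA, the lactate dehydrogenase gene of glycolysis, had 37.1 and 47.4 with NONO NC on it. All 5 had H3K27ac in both lists. The kept regions at 198 gene starts had a median pileup ratio of 0.930 and median folds of 12.7 and 14.7.

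The kept regions at a gene end with NONO NC and H3K27ac NC numbered 69 of the 1052. No matching share of the lost or of all NC regions is given, so this number is not read as an excess. The one with the highest smaller fold was that of ABHD2, and PABPC1, the gene of a poly(A)-binding protein, followed with folds of 47.3 and 65.0. TMBIM6, a gene for an inhibitor of cell death, had 56.9 and 27.7. APC2 (31.4 and 29.5), KCTD9 with CDCA2 (27.5 and 30.1), SOWAHC with SEPTIN10 (24.2 and 75.7), ZNF335 (21.8 and 23.7) and PALS1 (20.3 and 20) were further members. In these, the PKM2-KD fold was above the NC fold at PABPC1, KCTD9, SOWAHC and ZNF335 and below it at ABHD2, TMBIM6, APC2 and PALS1.

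The gene lists are read against the 1.55% of all genes. Kept regions lay at 6 of 80 cytosolic ribosomal protein genes (7.50%, 3.48 to 15.4) and at 7 of 72 canonical histone genes (9.72%, 4.79 to 18.7). An H3T11ph NC region of any kind lay at 30 of the 80 and 31 of the 72, against 3454 of all 18973 genes. RPL24 was the highest of the ribosomal protein genes, with folds of 79 and 54.3, and RPL27A (26.4 and 23.7), RPL23A (22.7 and 32.0), RPL4 (18.2 and 37.4), RPL18 (22.6 and 11.9) and RPS2 (3.94 and 7.67) made up the rest. Only the regions of RPL24 and RPL18 lay within 1 kb of a start of the gene itself. That of RPL18 was also at the start of SPHK2, and that of RPL4 was at the start of SNAPC5. The histone genes lay under 4 regions: H4C14 (16.1 and 6.44), H4C15 (14.9 and 6.35), H2AC12 with H2BC12 (15.2 and 4.80), and H2AC20, H2AC21 and H2BC21 together (3.48 and 12.7). Histone genes are near-identical copies of one another, and reads may be shared between them.

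Among kinases known to act on histone H3 or in mitosis, 2 of 10 had a kept region. These were AURKA (5.07 and 22.2), whose region also covered the start of CSTF1, and RPS6KA5 (28.7 and 17.3), whose region also covered the start of DGLUCY. The glycolysis list had 1 of 17 at a gene end, the mutase gene PGAM1 (8.10 and 25.5). The AP-1 list had JUN (9.26 and 12.6), 1 of 11, the mesenchymal list VIM (5.70 and 10), 1 of 16, and the YAP and TEAD list CCN2, a matricellular protein gene (16.1 and 12.2), 1 of 14. The splicing factor list had HNRNPC (14.3 and 5.97), 1 of 20. ZNF genes had 9 of 497 (1.81%), near the share of all genes. Histone acetyltransferases (0 of 12), NONO with its paralogs and paraspeckle genes (0 of 8), cell cycle genes (0 of 16) and olfactory receptors (0 of 386) had none.

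The genes of small structural RNAs were, of the classes compared, where wide H3T11ph regions were kept most often. Of 41 wide regions on a tRNA gene, 29 were kept (70.7%, 55.5 to 82.4), and of 29 on an snRNA gene, 23 (79.3%, 61.6 to 90.2). Of these 23, 12 lay in 1 span of chromosome 17 described below. They are not independent, and the intervals for snRNA genes do not cover that. These genes lay under 2.76% and 2.19% of the kept regions, 0.407% and 0.203% of the lost, and 0.180% and 0.0768% of all NC regions. The differences of kept and lost were 2.35 points (1.47 to 3.54) and 1.98 points (1.22 to 3.06). The kept regions touched 33 of 425 tRNA genes (7.76%) and 23 of 146 snRNA genes (15.8%). This comparison was added after the values were seen. A raised background was present at 27 of the 29 tRNA regions and 21 of the 23 snRNA regions, and among regions with a raised background tRNA genes lay under 3.46% of the kept and 0.965% of the lost (a difference of 2.49 points). Within bands of NC pileup the differences were less even. For tRNA genes the difference was 0.381 points (−0.989 to 3.23) at 20 to 40 fragments, 2.13 (0.607 to 4.57) at 40 to 80, 1.80 (−1.86 to 5.27) at 80 to 160 and −6.96 (−35.4 to 7.03) at 160 and over, where 12 lost regions were left. For snRNA genes it was 3.09 points (1.33 to 5.79) at 40 to 80 fragments, and its interval took in 0 in every other band. These are families of near-identical copies, and how reads that map to several copies were handled is not given in the sources used here.

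The strongest tRNA region held TRV-TAC1-1 and TRV-TAC2-1, both valine tRNA genes (chr11:59550196-59551234), with folds of 94.0 in NC and 68.2 in PKM2-KD. TRY-GTA5-1, a tyrosine tRNA gene within TRIM55, followed with 34.2 and 44.2. TRI-AAT5-5 and TRT-AGT1-1 shared 1 region with folds of 23.5 and 22.2. Over the 29 tRNA regions the fold ran from 2.31 to 94.0 in NC with a median of 11.2, and from 1.79 to 68.2 in PKM2-KD with a median of 11.4. NONO NC lay on 15 of them and H3K27ac NC on 10.

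Among snRNAs, RNU11, which encodes the U11 RNA of the minor spliceosome, had folds of 52.7 and 71.6 (chr1:28648570-28649409), with its summit at the same base in both libraries. RNU4ATAC, another minor spliceosome RNA gene, had 20.3 and 6.01. The U1 genes RNU1-1, RNU1-3 and RNU1-4 had 23.6 and 17.4, 10.5 and 8.53, and 7.15 and 7.31. RNU4-2, a U4 RNA gene, had 9.51 and 15.8, and RN7SK, whose RNA holds the elongation factor P-TEFb inactive, had 7.6 and 15.5. H3K27ac of PKM2-KD cells lay on 21 of the 23, and H3K27ac NC on 14.

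A row of 12 of these regions lay between chr17:43233726 and chr17:43300827, starting at RNU2-1, the gene of the U2 RNA. Each of the 12 covered an snRNA gene, and the span holds 13 such genes. Their pileups ran from 31 to 293 fragments in NC and from 23 upward in PKM2-KD. They were lower in PKM2-KD at 12 of 12, with a median ratio of 0.544. The fold over background did not fall in this uniform way, with a median over the 12 of 7.12 in NC and 8.06 in PKM2-KD. It rose at some, such as LOC124904143 (5.70 and 9.07), and fell at others, such as RNU2-1 (6.56 and 3.58). Members were selected on their NC width, so the lower pileups are not read as a loss. The H3K27ac list of PKM2-KD cells overlapped all 12, that of NC 7 and NONO NC 3. Because the copies may share reads, the 12 are not independent.

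Regions at rRNA genes were few and low in fold. Wide regions there numbered 12, of which 5 were kept (41.7%, 19.3 to 68.0), and their folds were 2.28 to 4.94 in NC and 2.1 to 2.91 in PKM2-KD. Their pileups were not all low. NC pileups were 247, 260 and 264 fragments at RNA28SN1, RNA28SN2 and RNA28SN3, and 36 and 34 at RNA5S3 and RNA5S10. The median NC background of the 5 was 269 times the commonest. NONO NC lay on all 5 and H3K27ac NC on 0. The 7 lost regions were alike in this, with NONO NC on 7 and H3K27ac NC on 0. NONO NC regions lay on all 29 rRNA genes, so the overlap was not particular to kept regions.

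**Figure D4:**
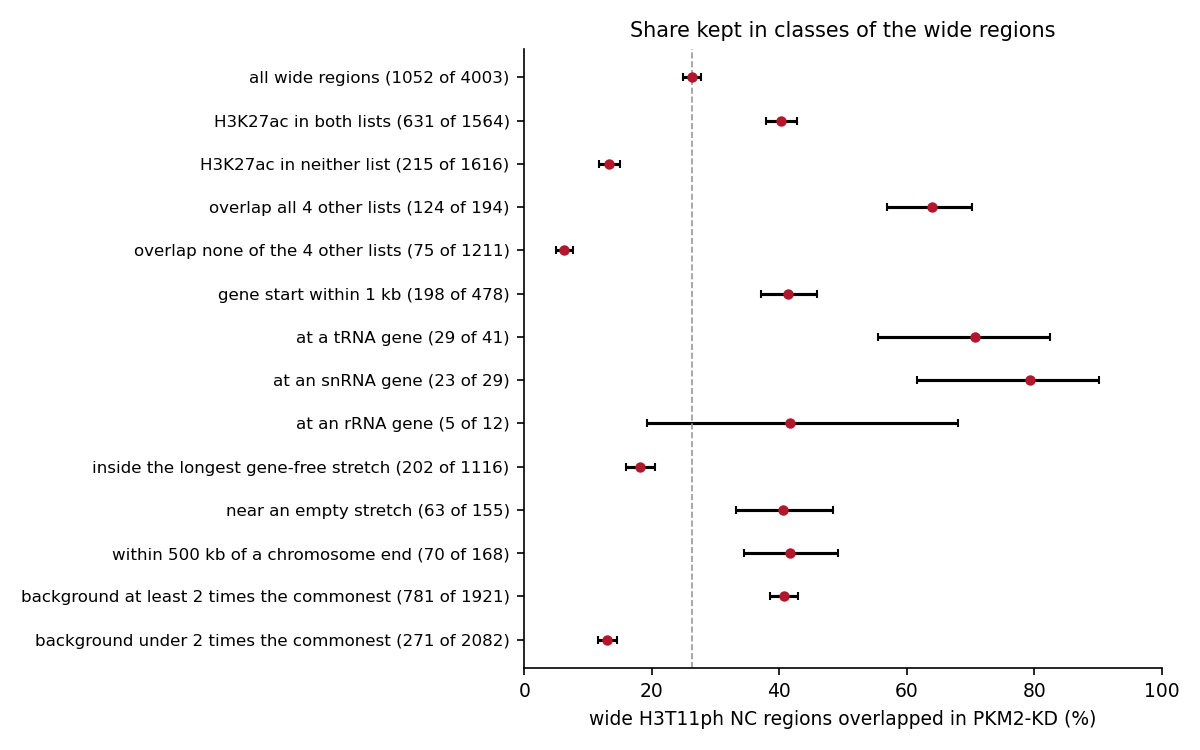
Share of wide H3T11ph NC regions overlapped in PKM2-KD, in percent, for classes of regions with the kept and total numbers in brackets. Points are shares with 95% Wilson intervals and the dashed line is the share of all wide regions, 26.3%; tRNA genes (70.7%) and snRNA genes (79.3%) are highest and regions with none of the 4 other lists (6.19%) lowest.

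The place of the kept regions along the chromosomes was described in place of a gap and centromere map, which was not used here. There were 4 stretches of at least 1 Mb with no region in any of the 6 lists, on chromosomes 1, 2, 9 and 16. Within 1 Mb of these lay 63 kept regions (5.99%), against 3.12% of the lost and 1.11% of all NC regions, a difference of 2.87 points (1.42 to 4.57). Of the 63, 29 lay in 1 cluster at the edge of the chromosome 1 stretch, 74.7 kb long, which held 1 lost region. Such neighbours are not independent, and the intervals here do not cover that. The difference was 1.65 points (−0.0566 to 3.57) within 2 Mb, 1.82 points (0.278 to 3.66) with a −log10 q limit of 5 in every list and 1.65 points (−0.191 to 4.67) without a raised background. On a raised background it was 1.96 points (−0.137 to 4.23). On chromosome 1 the regions near the edges of the 18.0 Mb stretch included chr1:125183430-125184134 (folds 14.4 and 21.3) and chr1:143200162-143200409 (14.8 and 13.1). The next by smaller fold were chr1:143263628-143264804 (13.7 and 10.6), chr1:125166911-125167233 (8.38 and 9.52) and chr1:143255316-143256028 (7.56 and 7.6).

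The longest stretch without a RefSeq gene on each chromosome, which on most human chromosomes takes in the centromere, gave the opposite direction over all heights together, and the direction turned with height. Inside these 22 stretches lay 202 kept regions (19.2%) and 914 lost ones (31.0%), a difference of −11.8 points (−14.6 to −8.79), against 8.25% of all NC regions. Under 20 fragments of NC pileup the difference was −6.50 points (−13.4 to 0.418). At 20 fragments and over it was 5.92 points (3.58 to 8.46), with 10.6 points (4.83 to 17.4) at 20 to 40, 5.36 (2.49 to 8.98) at 40 to 80, 4.62 (0.0181 to 9.10) at 80 to 160 and 5.26 (−22.3 to 15.7) above. Of the wide regions there, 18.1% (16.0 to 20.5) were kept, and of those elsewhere 29.4%. Chromosomes 1, 5 and 19 held 72, 52 and 43 of the 202, while chromosomes 3, 8, 9, 11, 13, 14, 15, 18, 20, 21 and 22 held 0. The kept regions inside had lower folds than those outside, with medians of 6.66 against 11.2 in NC and 4.70 against 10.9 in PKM2-KD. NONO-KD regions lay on 68.8% of the kept regions inside and on 24.8% of the lost, a difference of 44.0 points (36.7 to 50.5). Outside, the shares were 31.1% and 12.7% (18.3 points, 15 to 21.8). For NONO NC they were 33.2% and 10.6% inside (22.6 points, 16.1 to 29.6) and 45.6% and 20.1% outside (25.5 points, 21.7 to 29.3). For H3K27ac NC the differences inside and outside were of like size, 21.4 points (13.8 to 28.7) and 25.9 points (22 to 29.7).

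Kept regions also gathered in groups and at chromosome ends. With gaps of at most 50 kb, 24 clusters of 4 or more kept regions held 185 of the 1052. The largest, on chromosome 1 between 143192217 and 143266916, held 29 kept regions and 1 lost region with median folds of 6.22 and 3.96, and H3K27ac NC lay on 3 of the 29. The second, on chromosome 19 between 36269751 and 36308560, held 22 kept and 6 lost, and each of the 4 other lists lay on all 22. The third, on chromosome 5 between 49547235 and 49661790, held 16 kept and 11 lost. The median background in these 3 was 26.7, 40 and 36.1 times the commonest.

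Within 500 kb of the outermost region of a chromosome lay 70 kept regions (6.65%) and 98 lost ones (3.32%), against 1.60% of all NC regions. The difference of kept and lost was 3.33 points (1.80 to 5.10). The 4 highest NC pileups of all kept regions were there. They stood at chr5:10004-11783, with 4103 fragments in NC and 2646 in PKM2-KD, chr12:133264938-133265299 (1309 and 939), chr10:10011-10428 (963 and 656) and chr18:80262921-80263261 (777 and 567). NONO NC lay on all 4 and H3K27ac NC on 0. Each pileup was lower in PKM2-KD, but the 4 were picked by NC pileup, so this direction is not read as a loss. The next highest NC pileup was close in height to the last of these 4 but had the opposite overlaps in the NC lists. It stood at chr4:190179077-190179930, with 773 fragments in NC and a pileup ratio of PKM2-KD to NC of 0.287. H3K27ac NC lay on it and NONO NC did not, while 3 regions of the NONO-KD list did.

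The widest kept region, 5112 bp on chromosome 17 inside the gene-free stretch (chr17:26880790-26885901), had folds of 6.96 and 7.04 and was met by 6 PKM2-KD regions. The next 3, of 3072, 2815 and 2713 bp, lay on chromosomes 1, 10 and 5 and had folds of 5.90 and 4.35, 5.93 and 3.09, and 6.35 and 3.88. Those on chromosomes 1 and 5 also lay inside the gene-free stretch of their chromosome. The fifth, of 2580 bp, had 10.9 and 5.34 and lay within 500 kb of the outermost region of chromosome 17.

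The pair of libraries differed most in height at a few members. The region inside SLC1A3, a glutamate transporter gene, had 6 fragments in NC and 100 in PKM2-KD (ratio 16.7), and the one 1301 bp from CCN5 had 4 and 60 (ratio 15). A region on chromosome 4 at 49709844 to 49710393, 647765 bp from CWH43, had 59 and 831 (ratio 14.1), with a background 275 times the commonest in PKM2-KD. At the other end, the regions inside SAMD12 (121 and 6), LMTK3 (68 and 4) and the kinase gene HIPK2 (82 and 5) had ratios of 0.0496, 0.0588 and 0.0610. H3K27ac lay in both lists on the SLC1A3, CCN5, SAMD12, LMTK3 and HIPK2 regions. Over all members, 228 had a ratio under 0.5 and 112 a ratio over 2. With 1 library per group, how much of these differences lies within the spread between replicates was not tested.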

How the data were processed

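The authors deposited 1 MACS2 peak list per library, on hg38, with a score, a fold enrichment (ratio) at the summit and −log10 p and −log10 q values. The submitters' processing notes name FastQC 0.11.9, cutadapt 1.18, SAMtools 1.3.1, MACS2 2.1.1.20160309 and DESeq2. The aligner, the control and the handling of reads with several matches are not given in the sources used here. Whole pileups and backgrounds were recovered from the deposited fold and −log10 p of the H3T11ph lists (tolerance 0.002 in −log10 p) for 100.0% of NC and 99.9% of PKM2-KD regions. Wide means a width (end minus start) of 222 bp or more. On chromosomes 1 to 22, regions sharing 1 bp or more counted as overlapping, and genes came from RefSeq. Shares have 95% Wilson and differences 95% Newcombe intervals, computed in Python 3.11.15 with numpy 2.4.6, pandas 2.3.3 and scipy 1.17.1, and checked on simulated data. Named regions were those with the highest smaller fold, the widest, those with extreme pileup ratios and those at the width limit, near empty stretches or at listed genes, and not all of them are reported here. Members and lists were chosen with earlier results of these data known. Small RNA genes, clusters, chromosome ends and gene-free stretches were added later, and so were the values of AURKA, VIM, HNRNPC, RPS2 and the histone genes.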

Additional observations from a re-analysis of the deposited data

Results flagged for a closer look

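Chromosome X lay outside the comparisons above and also held kept regions. Of 64 wide H3T11ph NC regions on it, 16 overlapped a PKM2-KD region (25%, 95% Wilson interval 16.0 to 36.8), which is above the limit of 3 that a count of 0 allows and close to the 26.3% of chromosomes 1 to 22.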

How the results depend on the processing

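Of 70 alternatives, 53 kept the direction and the side of 0, or the size, of their result. The number and share of kept regions moved with the definition: 434 (10.8%) with at least 50% of the NC region covered, 561 (38.0%) at a width of at least 3 times the narrowest, 458 (11.4%) with PKM2-KD regions of the same minimum width, and a share of 21.4% at 1.5 times the narrowest. The 4 overlap differences kept their sign in every alternative run, from 14.9 to 38.7 points for H3K27ac NC, 12.9 to 44.7 for H3K27ac PKM2-KD, 15.7 to 34.0 for NONO NC and 15.1 to 29.4 for NONO NONO-KD, and the lower ends for both H3K27ac lists and NONO NONO-KD were on a raised background. The gene end difference fell to 1.73 points within bands of NC pileup. The difference near empty stretches was 1.65 points both within 2 Mb and on a background under 2 times the commonest and 1.96 on a higher one, each with an interval that takes in 0, and −12.7 points (inside or within 1 Mb) with the longest gene-free stretches in their place. That −12.7 was 3.05 (−0.0581 to 6.15) within bands of NC pileup, 4.83 at 20 fragments and over and −7.62 below. Inside these stretches alone, −11.8 became 3.52 (0.557 to 6.48), 5.92 and −6.50. The cause of these changes was not tested. The alternatives on background and gene-free stretches, with their pileup bands, were chosen after seeing the data. No paired analysis was possible because there was only 1 library in every group. Depth is known only as the lists imply it, and a region counted as lost may lie below the caller's threshold in PKM2-KD.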

Other observations

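Other small RNA genes had few kept regions: 1 of 1144 snoRNA genes (SNORD3B-2) and 0 of 1793 miRNA genes. Any H3T11ph NC region lay on 9 (0.787%) and 25 (1.39%) of these. Both a kept and a lost region lay within 1 kb of an end of 10 protein-coding genes.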
